A study of Mus musculus with 20 samples.

Results

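Cultured forebrain slices labelled knockout (KO) for Tnfaip6 were divided by how much Ttr, the transthyretin gene of the choroid plexus epithelium, their RNA held after 24 h in serum. The members were chosen by the raw Ttr count of each library: 3 of the 8 KO libraries at 24 h lay over 1000 counts and 5 did not, out of 20 libraries in the series. The 3 libraries over the limit, called Ttr-rich here, were KO female 1, KO female 3 and KO male 3. The 5 Ttr-poor libraries were those labelled KO female 2, KO female 4, KO male 1, KO male 2 and KO male 4. Just inside the limit stood KO male 3 with 4922 Ttr counts, ahead of it KO female 1 with 19661 and KO female 3 with 48186. Just outside it stood KO male 4 with 2 counts, and the other Ttr-poor libraries had 0 or 1. Ttr is left out of the genes compared in the split and of those tested in the slopes. The KO minus Het fits did not drop it, so their counts of genes can include it. Because a measured value made the split, differences between its sides are described without a test.

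Each library was bulk RNA-seq of slices from mouse pups at postnatal day 4. The 24 h groups were 4 KO females, 4 KO males, 3 heterozygous (Het) females and 3 Het males, all in 5% horse serum. The 4 h groups were 3 wild-type (WT) and 3 KO libraries in the same serum. KO refers to Tnfaip6, which encodes TSG-6, a secreted hyaluronan-binding protein. The genotype fields of the 24 h controls read Heterozygous although their treatment text speaks of WT, and the serum medium is DMEM in the protocols and HBSS in the design text. No label tells whether slices of separate animals gave the libraries of a group, so p-values describe the spread between libraries only.

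Transthyretin-making epithelium covers the choroid plexus, a folded tissue inside the brain ventricles that secretes cerebrospinal fluid. Its apical water channels, bicarbonate transporters, carbonic anhydrases and potassium channels move ions and water, and its receptors and carriers bring folate, hormones and retinol across the blood to fluid barrier. It arises from the roof plate next to the cortical hem, and it sits on a stroma of fibroblasts, macrophages and leaky capillaries. Ependymal cells with motile cilia line the ventricle beside it. A forebrain slice holds choroid plexus only where the section passes a ventricle and the tissue stays attached.

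The libraries at 24 h held 8482933 to 18051300 counts, the most in KO female 3 and the least in KO male 2. The library labelled KO female 2 went against its label: it had 0 Xist counts, 826 Ddx3y counts and 312 Kdm5d counts, which are the reads of a male. By these reads the Ttr-rich libraries came from 2 females and 1 male, and the Ttr-poor ones from 1 female and 4 males. Levels are given as CPM, the count of a gene relative to its library's size after edgeR's TMM scaling. KO male 1 stood apart by 48 genes with at least 2 CPM and at least 1 log2 unit above every other 24 h library. Tnfaip6 itself, the targeted gene, was read at 8.09, 5.28 and 6.86 CPM in the 3 Ttr-rich libraries and at 5.14, 7.54, 7.87, 6.41 and 5.65 CPM in the 5 Ttr-poor ones, which overlap. In the Het libraries it ran from 3.43 to 6.42 CPM, so the KO label is not seen as a loss of transcript. In bulk RNA, fewer cells of a type and less RNA per cell cannot be told apart, and a level here speaks of the slice as a whole.

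A small set of genes came with Ttr. Of 15325 genes that passed the expression filter, 16 (0.104%) were higher in all 3 Ttr-rich libraries than in any of the 5 Ttr-poor ones with a log2 difference of means of at least 1. Only 4 (0.0261%) were lower in the same way. With no limit on size, the 3 libraries lay above all 5 for 195 genes (1.27%) and below all 5 for 214 genes (1.4%). The 16 were Folr1, 1500015O10Rik, Car12, Slc4a5, Krt18, Calml4, Aqp1, Sostdc1, Col8a2, Clic6, Gm37176, Trpm5, Kl, Prox2, Epn3 and Lhx5. They include 10 of the 57 members of the 3 choroid plexus gene lists among the 15325 genes. These lists were made with earlier results of these data known, so the 10 are a description. Of the 16, 11 were also higher in all 3 libraries than in any of the 6 Het libraries. That share was not counted over all genes. The filter asks for reads in at least 4 libraries and so drops a gene that only these 3 express. With at least 10 counts in 3 libraries as the filter, a setting added after the data were seen, 22 of 15721 genes were higher (0.14%) and 5 lower (0.0318%). That setting added Kcne2, Tmem72, Mfrp, Defb11, Acox2 and C1s2. A gene such as Kcne2 that passes it only through the 3 libraries had to be higher there, so the larger count is a description and no support. Set against all 11 other 24 h libraries, the 3 were higher for 15 of 16012 genes (0.0937%), 10 of them among the 16, and lower for 2 (0.0125%).

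These counts moved when single libraries were left out. Each such setting also has fewer values to separate and its own filter, which kept 15629 genes without KO male 3 against 15325 with all. Without KO male 3, whose Ttr was the lowest of the 3, 52 genes were higher and 25 lower, and without KO male 2 the counts were 26 and 8. Without KO female 3, 12 were higher, 10 of them among the 16, and Clic6, Col8a2, Epn3, Lhx5, Prox2 and Trpm5 no longer met the rule. Without KO female 1, 14 were higher and 20 lower, and without KO female 3, 13 were lower. Without the library labelled KO female 2, which carries Y-linked reads, 23 were higher, 14 of them among the 16, and 7 lower. Without KO male 1, 19 were higher, 13 of them among the 16, and 5 lower.

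**Figure D1:**
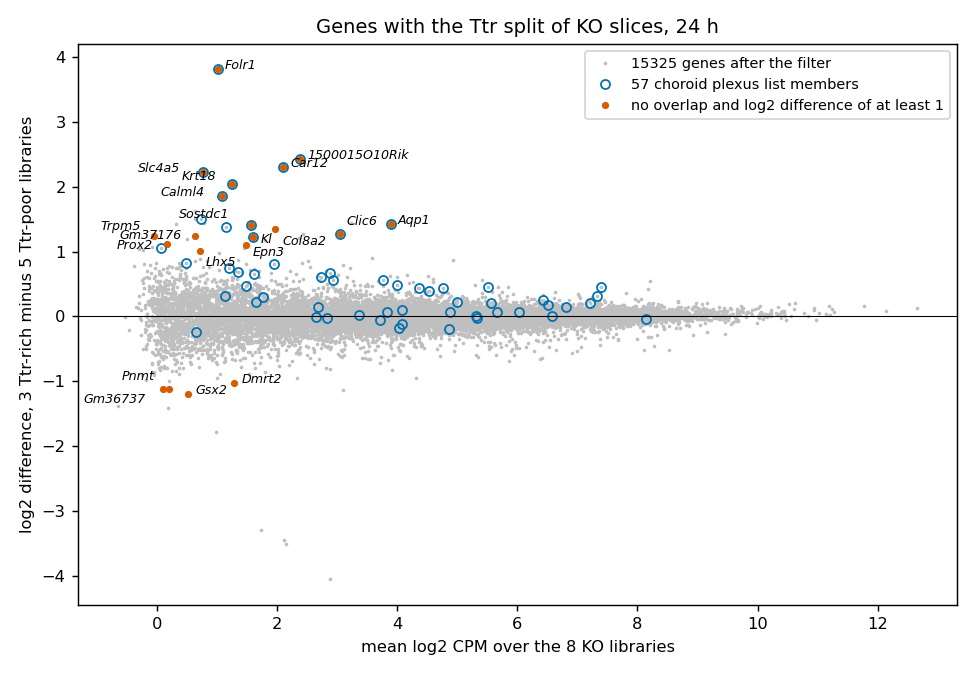
Log2 difference of means between the 3 Ttr-rich and the 5 Ttr-poor KO libraries (vertical) against the mean log2 CPM over the 8 KO libraries (horizontal); grey points are the 15325 genes after the filter, blue rings the 57 members of the choroid plexus lists, orange points the 20 genes without overlap and with a difference of at least 1. The 16 higher genes stand at the left and centre of the plot, at low to middling levels, with Folr1 at the top and 4 lower genes beneath the line.

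The genes that mark choroid plexus epithelium were checked first. Folr1, the folate receptor that carries folate into cerebrospinal fluid (ENSMUSG00000001827, GRCm38 chromosome 7, 101858331 to 101870788, minus strand), was read at 151, 481 and 39 counts in KO female 1, KO female 3 and KO male 3. In the Ttr-poor libraries, in the order given above, it was read at 7, 15, 3, 5 and 5 counts. The level was 13.98 ± 11.9 CPM (SD, n = 3) against 0.633 ± 0.338 CPM (SD, n = 5), a log2 difference of 3.81. KO female 3 was the highest, the 2 sets did not overlap, and the 6 Het libraries ran from 0 to 1.30 CPM. Anapc15 overlaps Folr1 on the other strand, and as the strand setting of the counting is not given in the sources used here, their reads cannot be told apart.

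Kcne2, the beta subunit of the potassium channels at the apical membrane (ENSMUSG00000039672, chromosome 16, 92292389 to 92298129, plus strand, no overlapping gene), was nearly absent outside the 3 libraries. It had 52, 90 and 18 counts in the Ttr-rich libraries and 1, 0, 0, 0 and 1 in the Ttr-poor ones, and 0 to 2 in the Het libraries. Scaled by depth, 160 counts against 2 is a ratio of 100 with an exact 95% Clopper-Pearson interval of 27.4 to 836. Such an interval treats pooled counts as independent and covers counting error only. It leaves out the spread between libraries and the copies made by PCR, and it is no test of the split. Tmem72, a membrane protein gene of the same epithelium (chromosome 6, 116679063 to 116716913, minus strand), had the same pattern, with 78, 224 and 24 counts against 1, 0, 0, 1 and 0. The ratio of 326 to 2 counts was 205 after scaling, with an interval of 56.2 to 1696. Both genes were at 0 in 3 of the 5 Ttr-poor libraries.

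Clic6, a chloride intracellular channel family member (chromosome 16, 92485736 to 92541243, plus strand), was present in the Ttr-poor slices too. Its level was 13.8, 22.1 and 9.37 CPM in the 3 Ttr-rich libraries and 6.63, 6.66, 5.76, 5.22 and 4.85 CPM in the 5 Ttr-poor ones. The Het libraries ran from 4.15 to 6.81 CPM with a median of 5.42, so the Ttr-rich libraries lay above all 11 others. The log2 difference was 1.27. The gene 2410124H12Rik overlaps Clic6 on the same strand, so the reads may belong to either. Clic6 and Folr1 kept reads in every Ttr-poor library, and whether these came from choroid plexus was not tested. The slices are therefore named only by their Ttr count.

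**Figure D2:**
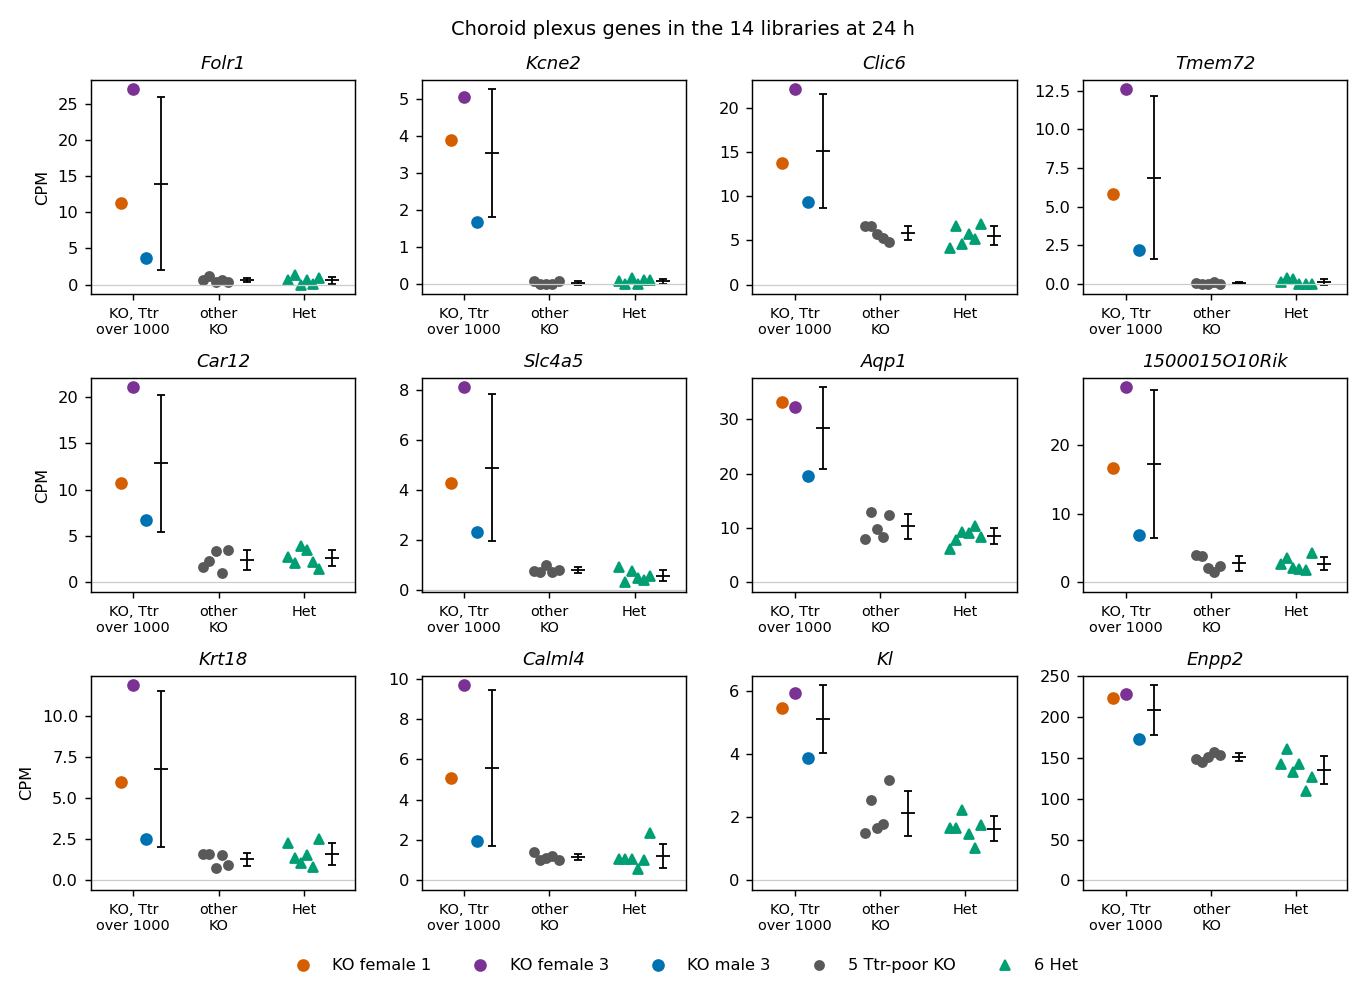
CPM (vertical) of 12 genes in each of the 14 libraries at 24 h: 3 Ttr-rich KO libraries by colour, 5 Ttr-poor KO libraries as grey points and 6 Het libraries as green triangles, with the mean and SD of each set as a bar. In Folr1, Kcne2 and Tmem72 the other 11 libraries lie close to 0, whereas in Clic6, Aqp1 and Enpp2 they form a raised floor under the 3.

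Sequence upstream of the genes called higher under either filter was read from RefSeq promoters of GRCm38.p6, because the genes moved together between libraries. Of 22 genes looked up, 16 were matched, with 19 start sites. Folr1 and Clic6 were among those without an entry. The 250 bases before each start were searched on both strands for TAATCC (the core bound by OTX factors), TAAACA (a forkhead core), GTTGCC (a part of the site of RFX factors) and TATAAA (the TATA box). The TATA box and the forkhead core can overlap by 4 letters. TAATCC stood in 1 of the 19 windows against 6.3% of all 32851 windows, TAAACA in 1 against 12%, GTTGCC in 4 against 10.4% and TATAAA in 1 against 12.4%. A match is a run of letters and no bound site. The windows printed next were taken from those with a match, and a further start site of Kcne2 held none of these motifs. The windows of Kcne2 and Car12 are shown as those of a gene nearly absent elsewhere and of a gene with a floor, each on the plus strand, with the motif (here as its reverse complement, since the match lies on the minus strand) in capitals: GTTGCC for Kcne2 and TAAACA for Car12.
Kcne2, chr16:92292139-92292388: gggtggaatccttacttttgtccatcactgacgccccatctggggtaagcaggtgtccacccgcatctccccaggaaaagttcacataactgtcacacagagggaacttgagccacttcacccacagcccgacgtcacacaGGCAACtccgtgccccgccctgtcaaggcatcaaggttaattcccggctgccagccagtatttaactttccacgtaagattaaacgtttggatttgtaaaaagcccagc
Car12, chr9:66713436-66713685: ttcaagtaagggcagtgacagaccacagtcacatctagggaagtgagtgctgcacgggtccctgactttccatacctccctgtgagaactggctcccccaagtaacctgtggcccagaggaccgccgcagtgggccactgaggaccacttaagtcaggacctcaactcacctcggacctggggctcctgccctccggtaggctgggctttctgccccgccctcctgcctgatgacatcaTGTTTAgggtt

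Among 24 genes of ion, water and solute transport in the choroid plexus, 21 passed the filter. Higher by the rule were 4, namely Car12, Slc4a5, Aqp1 and Clic6, against 0.104% of all genes. The list's median log2 difference was 0.25, with 18 of 21 above 0. Over all genes the median was 0.00, with 7434 of 15325 above 0. Car12, a carbonic anhydrase of the cell surface (chromosome 9, 66713686 to 66766845), was at 10.7, 21.0 and 6.77 CPM in the Ttr-rich libraries and at 1.68, 2.30, 3.44, 1.07 and 3.50 CPM in the Ttr-poor ones, a log2 difference of 2.30. Slc4a5, the apical sodium bicarbonate cotransporter, was at 4.27, 8.09 and 2.32 CPM against 0.747, 0.714, 0.998, 0.712 and 0.795 CPM, a log2 difference of 2.23. Neither gene overlapped between the sets, and the Ttr-rich libraries were also above every Het library, where Slc4a5 reached 0.906 CPM and Car12 3.89 CPM.

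Aqp1, the apical water channel (chromosome 6, 55336432 to 55348555, plus strand), was at 33.1, 32.2 and 19.7 CPM against 7.94, 12.9, 9.87, 8.43 and 12.5 CPM. Here KO female 1 was as high as KO female 3, and the log2 difference was 1.43. Car14, a further membrane-bound carbonic anhydrase, had a log2 difference of 1.498 but overlapped: KO male 3 was at 1.30 CPM and the Ttr-poor KO male 4 at 1.83. Abca4, a lipid flippase best known from photoreceptors, was higher in all 3 at 11.5, 10.4 and 7.88 CPM against 7.29, 6.58, 5.21, 5.70 and 5.65 CPM, a log2 difference of 0.68.

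Other carriers of the same epithelium named here did not separate the 2 sets, except Kcnj13, which did so at low counts. Slc12a2, the sodium, potassium and chloride cotransporter of fluid secretion, was at 52.2, 55.2 and 49.98 CPM against 50.9, 45.9, 49.7, 50.3 and 51.5 CPM. Its log2 difference was 0.07. Slc4a2, an anion exchanger, differed by 0.22 on the log2 scale, Slc4a10, a sodium-dependent bicarbonate transporter, by 0.17, Slc31a1, a copper importer, by 0.07 and Slc29a4, a monoamine transporter, by 0.14, with overlap in each. Slc13a4 and Slc22a8, carriers of sulfate and of organic anions that the meninges also express, had differences of -0.12 and -0.18. Kcnj13, an apical potassium channel, did not pass either filter: it had 5, 14 and 4 counts in the Ttr-rich libraries and 1, 2, 3, 1 and 0 in the Ttr-poor ones. At 0.374, 0.786 and 0.371 CPM against at most 0.333 it was higher in all 3, with a log2 difference of 1.17. The highest Het library was at 0.838 CPM.

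Secreted proteins, receptors and junction genes of the choroid plexus formed the list with the larger difference. Of 26 measured genes 25 passed the filter, and 6 were higher by the rule (Folr1, 1500015O10Rik, Krt18, Calml4, Sostdc1 and Kl), against 0.104% of all genes. Without regard to size 10 lay above in all 3, against 1.27% of all genes. The median log2 difference was 0.56, with 24 of 25 above 0, against 7434 of 15325 over all genes. 1500015O10Rik, which RefSeq names Ecrg4 and which encodes the secreted peptide precursor augurin (chromosome 1, 43730602 to 43742578), was at 16.6, 28.3 and 6.86 CPM against 4.02, 3.89, 2.11, 1.54 and 2.39 CPM. That is a log2 difference of 2.42, and no Het library exceeded 4.28 CPM. Kl, the hormone co-receptor klotho, was at 5.47, 5.95 and 3.89 CPM against 1.49, 2.54, 1.66, 1.78 and 3.18 CPM, a log2 difference of 1.22, and the Het libraries stopped at 2.23 CPM.

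The epithelial keratin Krt18 was at 5.99, 11.9 and 2.50 CPM against 1.59, 1.59, 0.776, 1.54 and 0.954 CPM, a log2 difference of 2.04. Calml4, a calmodulin-like gene of brush-border cells, was at 5.09, 9.66 and 1.95 CPM against 1.40, 1.03, 1.11, 1.19 and 1.03 CPM, a log2 difference of 1.86. For these 2 genes KO male 3 was above the Ttr-poor libraries but not above the Het libraries, which reached 2.53 and 2.33 CPM. Sostdc1, a secreted antagonist of BMP and Wnt ligands, was at 4.94, 8.93 and 3.43 CPM against 1.21, 3.01, 1.55, 2.14 and 1.99 CPM, and its KO male 3 value was likewise below the highest Het value of 3.99. Krt8, the partner keratin of Krt18, overlapped: KO male 3 at 2.04 CPM lay below the library labelled KO female 2 at 2.15, while KO female 3 reached 8.59.

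Cldn2, the pore-forming claudin of leaky epithelia, had 43, 100 and 8 counts in the Ttr-rich libraries and 2, 3, 2, 4 and 5 in the Ttr-poor ones. It did not pass either filter, and its log2 difference was 2.51. Cldn1, a sealing claudin, was at 8.39, 11.3 and 6.58 CPM against 6.63, 5.31, 4.55, 4.75 and 6.76 CPM with overlap by KO male 3, and Cldn3 differed by 0.22 on the log2 scale, also with overlap. The highest Het library had 0.831 CPM of Cldn2, above KO male 3 at 0.742 CPM.

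Enpp2 encodes autotaxin, a secreted enzyme that makes lysophosphatidic acid and that cells of the oligodendrocyte line also express. It was at 223, 227 and 173 CPM in the Ttr-rich and 149, 144, 151, 156 and 154 CPM in the Ttr-poor libraries. The sets did not overlap, the Het libraries ended at 160 CPM, and the log2 difference was 0.45. Ace, the angiotensin-converting enzyme, was higher in all 3 with a log2 difference of 0.44, Cab39l, a scaffold protein of kinase signalling, with 0.40, and Vat1l with 0.32. Igf2, a growth factor that meninges also secrete, was at 405, 217 and 252 CPM against 242, 352, 227, 278 and 368 CPM and did not separate the 2 sets. Htr2c, the serotonin 2C receptor, was at 26.1, 37.9 and 27.5 CPM against 30.9, 26.9, 29.9, 26.0 and 30.2 CPM, again with overlap, and neurons express it too.

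Transcription factors and roof plate signals did not come with Ttr as a list. Of 14 genes 11 passed the filter, 0 were higher or lower by the rule, 6 were above 0 and the median log2 difference was 0.00. Over all genes 7434 of 15325 were above 0, 0.104% were higher by the rule and 0.0261% lower. Otx2, a factor needed for choroid plexus formation, was at 2.77, 8.54 and 2.50 CPM against 1.49, 3.17, 2.11, 2.85 and 2.94 CPM, so KO female 3 alone stood out. Msx1, a target of BMP signals, was at 5.99, 9.55 and 2.69 CPM against 3.64, 3.57, 1.66, 3.56 and 3.02 CPM, high in both females and within the range in KO male 3. Lmx1a, a roof plate factor, had 8, 45 and 3 counts against 9, 3, 0, 2 and 1. Foxj1, the master factor of motile cilia, was at 22.1, 86.8 and 32.7 CPM against 37.9, 39.7, 43.0, 34.5 and 47.8 CPM: KO female 3 was the highest of the 8 and KO female 1 the lowest. Rfx2 and Rfx3 had log2 differences of -0.02 and 0.00.

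Several genes outside the lists also came with Ttr. Col8a2, a collagen of basement membranes, was at 5.99, 12.2 and 4.45 CPM against 2.90, 3.57, 2.00, 2.37 and 2.39 CPM, a log2 difference of 1.35, and lay above all Het libraries. Mfrp, a membrane frizzled-related protein known from the retinal pigment epithelium, had 58, 116 and 24 counts against 3, 0, 3, 2 and 4, and 0 to 2 in the Het libraries. Its log2 difference was 3.47; C1qtnf5 overlaps it on the same strand, so the reads may belong to either. Defb11, a beta-defensin gene, had 22, 40 and 10 counts in the 3 and 0 in all 11 other libraries at 24 h. Against a limit of 3 counts over the 5 Ttr-poor libraries, its level was at least 30.1-fold higher.

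Epn3, an epsin of clathrin-coated pits, was at 5.24, 5.06 and 3.06 CPM against 2.34, 1.90, 1.33, 2.25 and 1.99 CPM, a log2 difference of 1.10. Prox2, a homeobox gene, was at 1.57, 1.57 and 1.86 CPM against 0.841, 0.873, 0.333, 0.831 and 0.636 CPM, and Gm37176, an uncharacterised gene, at 2.40, 2.42 and 2.78 CPM against 1.68, 0.873, 1.22, 1.07 and 0.398. In both, KO male 3 was the highest of the 3, unlike in the choroid plexus genes. Trpm5, a calcium-activated cation channel, and Lhx5, a factor of the cortical hem, had log2 differences of 1.25 and 1.01, and their highest Het values of 1.08 and 3.40 CPM overlapped the 3. Counts behind these values were small, in Prox2 21, 28 and 20 against 9, 11, 3, 7 and 8.

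Among genes higher in all 3 without overlap and with a mean of at least 5 CPM in the 3, the 25 with the largest difference were named. Of these 25, 11 had a log2 difference of at least 1 and 12 were above all 6 Het libraries. The remaining 14 differed by 0.45 to 0.86. Sgms2, a sphingomyelin synthase, was at 8.91, 9.72 and 6.31 CPM against 5.98, 3.09, 4.43, 5.10 and 3.98 CPM and above every Het library. Ndst4, an enzyme of heparan sulfate synthesis, was at 7.34, 9.15 and 6.31 CPM against 4.20, 4.76, 3.44, 4.75 and 3.82 CPM, but the Het libraries reached 10.2 CPM. Ntng1, a netrin-like protein of thalamic axons, and Dgkk, a diacylglycerol kinase, were higher by 0.47 and 0.57 and overlapped the Het libraries, as did Tshz2 at 0.56. The rest of this group were Gm16702, Cdk5rap1, 4732487G21Rik, Shkbp1, Dmrtb1, Mlf1 and Dera, with differences of 0.45 to 0.62.

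Few genes were lower with Ttr, and none of them by as much as the leading higher genes. Gsx2, a factor of progenitors in the ganglionic eminence, was at 0.524, 0.955 and 0.649 CPM in the Ttr-rich libraries against 1.21, 2.54, 2.00, 1.31 and 2.31 CPM, a log2 difference of -1.20. Dmrt2, a DM-domain factor, was at 1.57, 1.46 and 1.21 CPM against 1.96, 3.01, 3.55, 3.44 and 3.50 CPM, a difference of -1.03, and lay below all 6 Het libraries. Pnmt, the enzyme that makes adrenaline, and Gm36737 had differences of -1.12 and -1.11. Among lower genes with a mean of at least 5 CPM in the Ttr-poor libraries, Aldh1a3, a retinoic acid synthase of the lateral ganglionic eminence, had the most negative difference, -0.94. It was at 17.3, 8.71 and 14.9 CPM against 18.2, 30.9, 38.7, 19.9 and 23.8 CPM.

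Clspn, Ddx11, Pimreg and Kif11, genes of chromosome replication and division, were lower in all 3, with log2 differences of -0.54, -0.48, -0.48 and -0.47. The cell cycle list had 0 of 12 genes above 0, against 7434 of 15325 over all genes. Its median was -0.22, and 0 genes met the rule, against 0.0261% lower over all genes. Its medians were -0.26, -0.17 and -0.28 in KO female 1, KO female 3 and KO male 3. Its summed levels there, 174, 189 and 176 CPM, lay within the 161 to 258 CPM of the Ttr-poor libraries. Hmga2, Oprd1, Mme and Mfsd4b4 were also lower in all 3, with differences between -0.52 and -0.74. Of the 10 lower genes chosen by size among those without overlap, 4 were also below all 6 Het libraries.

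The 3 libraries did not carry the genes in equal amounts. For each gene the level above the Ttr-poor mean was summed over the 3 and divided among them. KO female 3 held 65.9% of the excess of Folr1, 61.1% of Tmem72, 64.1% of Krt18, 59.5% of Car12 and 58.6% of Clic6. KO male 3 held 7.5%, 10.6%, 7.4%, 14% and 12.8% of these, and KO female 1 the rest. For another set the 2 females shared evenly: KO female 1 held 42.2% of Aqp1, 42.5% of Enpp2, 43.9% of Epn3 and 37.4% of Kl, and KO female 3 40.6%, 44.7%, 41.4% and 42.8%. Of 24 genes examined, 18 had the largest share in KO female 3 and 20 the smallest in KO male 3. In Prox2, Gm37176 and C1s2, KO male 3 held the largest share, 39.8%, 39.0% and 38.5%.

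**Figure D3:**
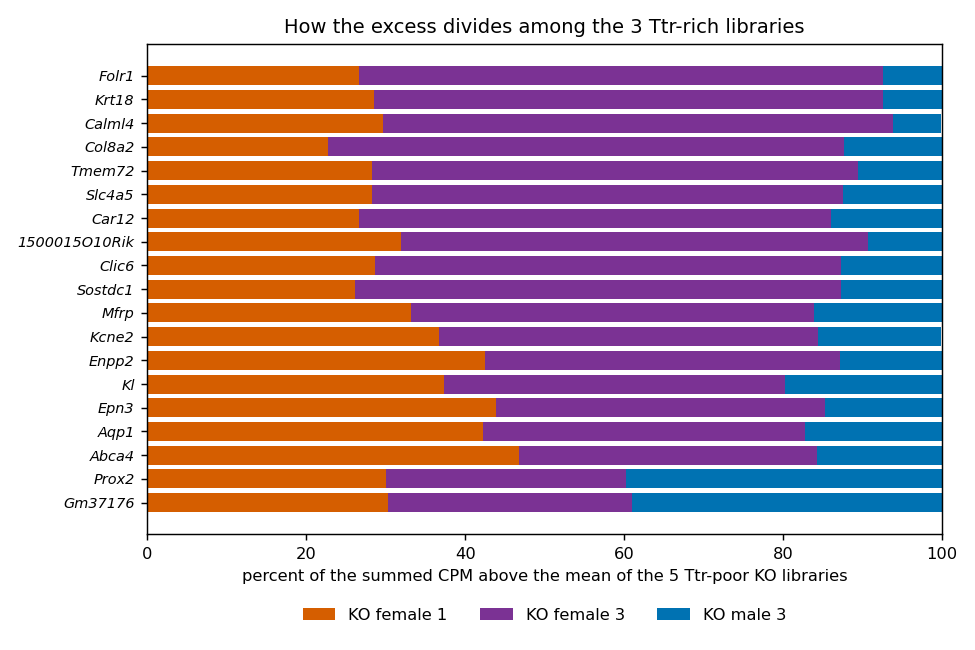
Share of each gene's summed CPM above the Ttr-poor mean (horizontal, percent) in KO female 1 (orange), KO female 3 (purple) and KO male 3 (blue). The purple part is 65.9% in Folr1, 40.6% in Aqp1 and 30.1% in Prox2, and of the genes drawn blue is the longest part in Prox2 and Gm37176.

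Markers of the tissues around the choroid plexus were read in the same 3 libraries, and they did not move as a block. Motile cilia genes, 25 of which passed, had 0 genes higher by the rule and list medians of -0.49 in KO female 1, 0.84 in KO female 3 and -0.33 in KO male 3. Their summed level was 179, 436 and 191 CPM, against 209 to 253 CPM in the Ttr-poor and 207 to 317 CPM in the Het libraries. Fibroblast and meningeal genes of the stroma (18) had medians of 0.29, -1.07 and -0.19, with summed levels of 2467, 1483 and 1854 CPM against 1781 to 2464 CPM in the Ttr-poor libraries. Border macrophage genes (6 passed) had medians of 0.27, -1.12 and -0.99. Genes of fenestrated endothelium (8) had medians of -0.06, -0.19 and -0.15. No measured member of these 4 lists was at 0 in any of the 8 libraries, and their part in the result was not tested.

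Red cell genes ran in opposite directions in the 3 libraries. Their medians were 1.30 in KO female 1, -1.06 in KO female 3 and 0.45 in KO male 3, with summed levels of 228, 41.6 and 124 CPM against 62.3 to 123 CPM in the Ttr-poor libraries; Slc4a1 was at 0 in some libraries of both sets. Interferon-induced genes had medians of -0.11, -2.06 and 1.37. Immediate early genes, which neurons switch on with activity, had medians of 0.49, -0.93 and -0.13. Mitochondrially encoded genes had medians of 0.39, 0.10 and 0.04. Over the 3 libraries 9 of 9 were above 0, against 7434 of 15325 of all genes. In none of these lists did a gene meet the rule, and their part in the result was not tested.

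Region markers showed where KO female 3 and KO female 1 differed from the other slices. Genes of the cortical hem and Cajal-Retzius cells (10 passed) had medians of 0.17, 0.77 and 0.01, with summed levels of 295, 289 and 234 CPM against 221 to 263 CPM in the Ttr-poor and 191 to 231 CPM in the Het libraries. Lhx5 was the list's only gene higher by the rule, and Wnt3a and Wnt8b were at 0 in some libraries of both sets. Septal genes (6) had medians of 0.10, 0.80 and -0.07, thalamic and habenular genes (10) 0.13, 0.53 and 0.03 and hippocampal genes (10) 0.12, 0.36 and 0.15. Striatal genes (12) were at -0.69 and -0.81 in the females and 0.11 in KO male 3, with summed levels of 567, 519 and 1012 CPM against 811 to 1010 CPM. Drd1, the D1 dopamine receptor of striatal neurons, was at 51.5, 44.9 and 106 CPM against 97.8, 91.1, 105, 94.6 and 107 CPM. These values stand beside the choroid plexus difference, and their part in it was not tested. Pou4f1 and Shox2 of the thalamic list were at 0 in some libraries of both sets.

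**Figure D4:**
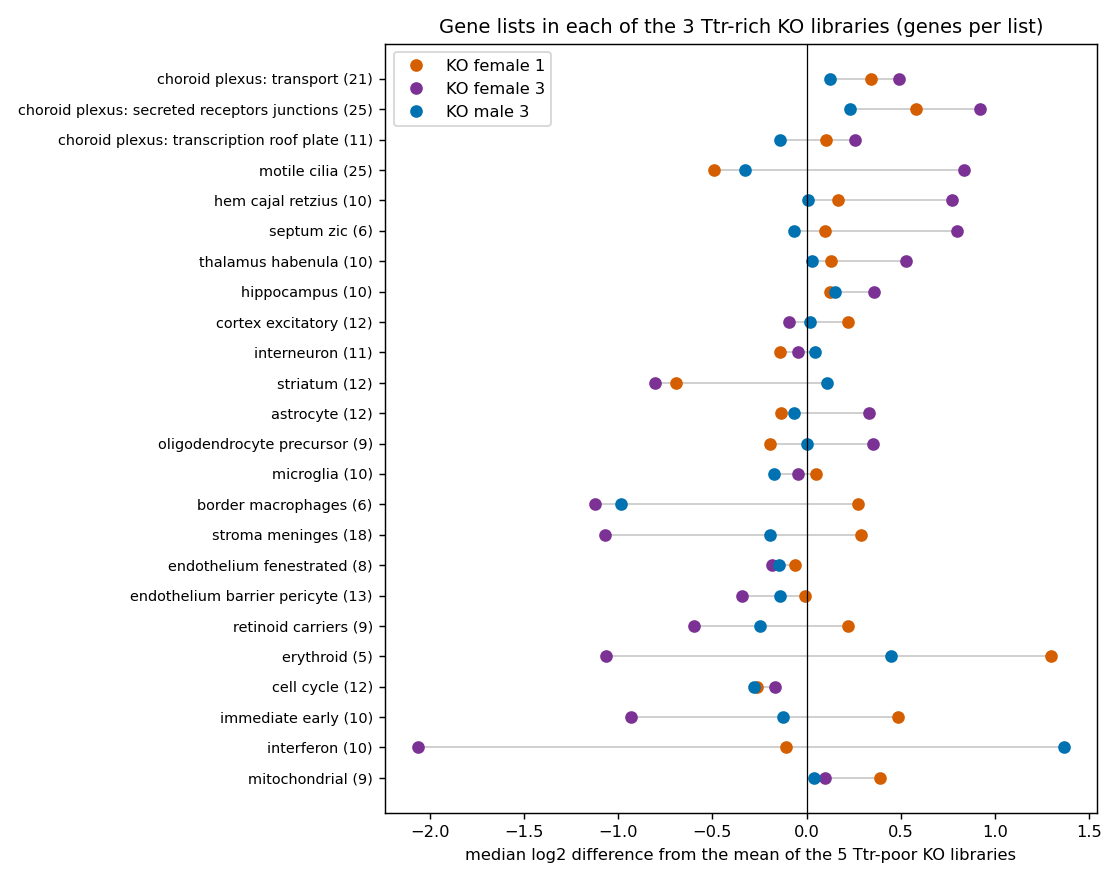
Median log2 difference of each gene list (rows, number of genes after the filter in brackets) in KO female 1 (orange), KO female 3 (purple) and KO male 3 (blue) from the mean of the 5 Ttr-poor KO libraries. In the transport list and the secreted, receptor and junction list all 3 points lie right of 0, as they do in the mitochondrial, hippocampal, thalamic and hem lists; in the erythroid list they run from -1.06 to 1.30 and in the interferon list from -2.06 to 1.37.

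KO female 3 also stood above every other library in some genes. In it 14 genes had at least 2 CPM and stood at least 1 log2 unit above the next of the 13 other libraries, against 7 in KO male 3 and 0 in KO female 1. These names were chosen after their values were seen. Folr1, Tmem72, Col8a2, Krt8, F5, Otx2, Lmx1a and Acox2 were among the 14. Eomes, a T-box factor of intermediate progenitors, was at 16.0 CPM in KO female 3 and at most 4.28 CPM elsewhere, and Ebf2 at 7.36 against 2.72 CPM. In KO male 3 the 7 genes were Cxcl11, Ifi205, Tgtp1, Tgtp2, H2-Q6, Gbp4 and Gm12250, most of them induced by interferon, and Tgtp1 and Tgtp2 are near-identical copies whose reads may be split. Gbp4 was at 7.70 CPM there and at most 3.55 CPM elsewhere.

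The labels' own comparison at 24 h asks how KO slices differ from Het slices, and these 3 libraries are part of its KO side. By edgeR's quasi-likelihood test with Benjamini-Hochberg adjustment 0 of 16013 genes (0%) passed 0.05, while 1060 (6.62%) had an unadjusted p under 0.05. DESeq2 called 10, none of them in a choroid plexus list. Without the expression filter edgeR called 263 of 30270 genes (0.869%), with 16 of the 64 choroid plexus list members tested among them, including Kcne2, Clic6, Aqp1, Slc4a5, Car12, Tmem72, Folr1 and Kl. Leaving out the 3 Ttr-rich libraries, 0 of 16175 genes (0%) passed and 983 (6.08%) had an unadjusted p under 0.05.

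The KO minus Het differences of the choroid plexus genes were smaller without these libraries. Most genes shown were named for being higher in the 3, so a smaller difference follows from that choice. It is a description and no support. Folr1 had a log2 fold change of 2.74 ± 0.95 (SE; edgeR adjusted p = 0.738) with all 14 libraries and of 0.25 ± 0.64 (adjusted p = 0.975) without the 3. Aqp1 went from 0.96 ± 0.28 to 0.29 ± 0.16, Clic6 from 0.70 ± 0.26 to 0.11 ± 0.15, Slc4a5 from 1.89 ± 0.58 to 0.48 ± 0.34, and 1500015O10Rik from 1.30 ± 0.48 to 0.07 ± 0.25. Car12, Krt18, Calml4 and Sostdc1 changed sign, Car12 from 1.17 ± 0.50 to -0.15 ± 0.31, with no adjusted p under 0.05 in either fit. Kcne2 (3.58 ± 1.28) and Tmem72 (4.97 ± 1.82) no longer passed the filter without the 3. The median over the transport list went from 0.22 (18 of 23 above 0) to 0.07 (12 of 21), and that over the secreted, receptor and junction list from 0.30 (22 of 26) to -0.02 (11 of 25), beside 0.00 over all genes in both fits.

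**Figure D5:**
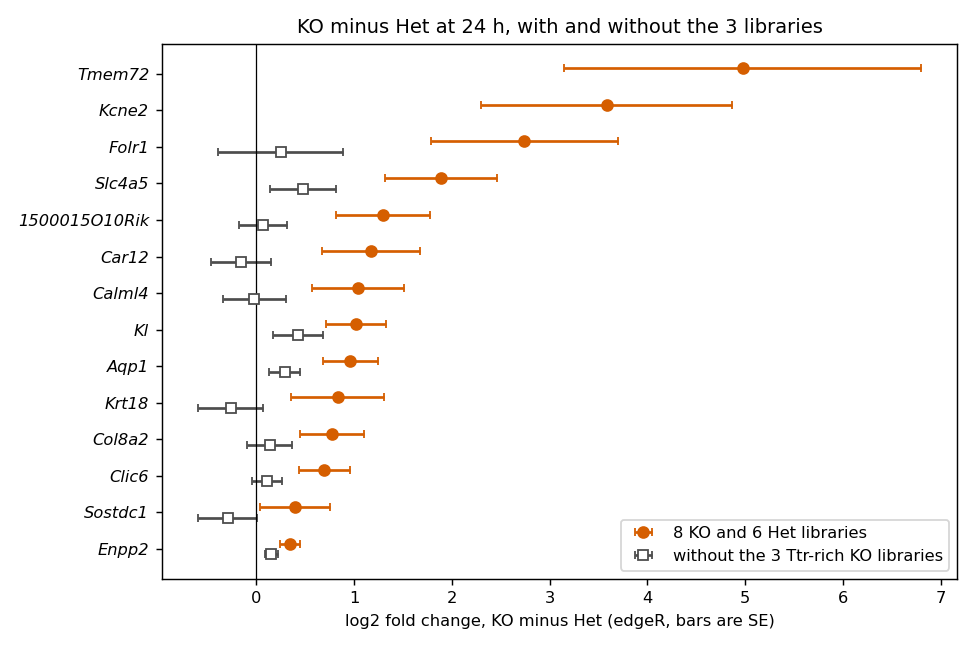
Log2 fold change KO minus Het at 24 h with its SE (horizontal) for 14 genes, with all 8 KO and 6 Het libraries (orange circles) and without the 3 Ttr-rich KO libraries (open squares). The circles run from 0.35 in Enpp2 to 4.97 in Tmem72, and the squares from -0.29 in Sostdc1 to 0.48 in Slc4a5; Tmem72 and Kcne2 have no square because they did not pass the filter without the 3.

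Libraries that the split did not use held almost no Ttr. The 6 Het libraries had 0 to 8 counts and the 6 libraries at 4 h had 1 to 4 reads, so a slope on Ttr there covers a range of single reads. Among Het libraries, edgeR's quasi-likelihood test with Benjamini-Hochberg adjustment called 276 of 15493 genes (1.78%), 163 with a positive and 113 with a negative slope. The count was 72 without Het male 3, which had the 8 Ttr counts, 79 without Het male 2, 169 without Het female 1 and 66 without the sex term. Of the choroid plexus lists 3 genes were called: Igf2 (0.40 ± 0.06 per log2 unit of Ttr, SE, adjusted p = 0.00557), Msx1 (1.06 ± 0.25, adjusted p = 0.048) and Sulf1 (-0.53 ± 0.12, adjusted p = 0.044). None of these met the rule in the KO split. Clic6 had a slope of 0.36 ± 0.20 (adjusted p = 0.427) and 1500015O10Rik of 0.89 ± 0.24 (adjusted p = 0.0785).

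At 4 h, limma called 5 of 15181 genes (0.0329%), all of them sex-linked: Xist, Kdm5d, Eif2s3y, Uty and Ddx3y. edgeR on the recovered reads called 0, with 677 genes under an unadjusted p of 0.05. Clic6 had a slope of -0.18 ± 0.34 (limma adjusted p = 0.978). The 6 libraries held 2 to 10 reads of Folr1, 0 to 4 of Kcne2, 29 to 69 of Clic6 and 32 to 68 of Aqp1, at 11411532 to 15030171 reads per library. A slice with Ttr of the order seen in the 3 KO libraries was found neither at 4 h nor among the Het libraries.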

How the data were processed

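RNA-seq of 20 libraries was used. For 24 h the authors deposited raw counts of reads for 51912 gene identifiers, 51633 of which matched a symbol. For 4 h they deposited a signal, reads divided by a size factor per library; 100% of the deposited values came back as whole reads within a tolerance of 0.05. Per the submitters' processing notes, TopHat2, HTSeq, DESeq2 1.38.3 and GRCm38 (mm10) were used; no source used here gives the strand setting or annotation release. Coordinates are GENCODE GRCm38, 1-based.

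The members, gene lists (26 lists, 302 genes) and rules were chosen with earlier results of these data known. Levels are CPM with TMM scaling; log2 CPM has a prior count of 2. Counts of genes use edgeR's default filter, while differences of single genes come from all rows, so that genes dropped by the filter share the scale. Named genes were the markers, members of the choroid plexus lists, and the 25 higher and 10 lower genes with the largest differences among those without overlap and with a mean of at least 5 CPM on the higher side. Some of these genes are not reported here. KO minus Het and the slope on Ttr in Het libraries were fitted with edgeR 4.0.16 (R 4.3.3, quasi-likelihood F test, two-sided) over all genes. Sex entered both, and 1 mean per genotype and sex the first. Sex was taken from the labels, so the library labelled KO female 2 was fitted as female despite its Y-linked reads. The 4 h slope used limma 3.58.1 on log2(value + 1) for genes with a mean of at least 10, with a genotype term, since that table is not of counts. Adjusted p-values are Benjamini-Hochberg values. Alternatives were DESeq2 1.42.0, other scaling, filters and prior counts, left-out libraries, single sexes, and a replicate block. The fits recovered known changes in simulated data, where changes were planted in well-counted genes only. Changes in genes with few counts, and slopes on a Ttr range of single reads, were not simulated.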

Additional observations from a re-analysis of the deposited data

Results flagged for a closer look

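KO male 3 was the Ttr-rich library among 4 KO males, and 7 genes set it apart from the other 3 by a gap larger than Dixon's 95% critical value for 4 values. The gap as a part of the group's range was 0.921 for Folr1, 0.952 for Kcne2, 0.947 for Tmem72, 0.842 for 1500015O10Rik, 0.833 for Calml4, 0.841 for Col8a2 and 0.952 for Mfrp. These genes were chosen with the split known, so the gaps describe KO male 3 and are no independent support. A total of 38 groups of values was examined, and chance flags about 1 in 20 groups. Among the 4 KO females, which hold 2 Ttr-rich libraries, no gene examined passed the limit.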

How the results depend on the processing

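The counts of 16 higher and 4 lower genes in the Ttr split were 16 and 4 with DESeq2 size factors, 15 and 4 with library totals and 16 and 5 with a prior count of 0.5. They were 58 and 13 without the filter and 5 and 0 with a log2 difference of at least 2. By label, they were 38 and 12 in KO females alone and 33 and 14 in KO males alone. These females include the library labelled KO female 2, which carries Y-linked reads. Against all 11 other libraries the lower count was 2. Leaving out each library gave 12 to 52 higher and 3 to 25 lower genes. In KO females alone Folr1 and Slc4a5 were dropped by the filter, and in KO males alone 2 of the 16 were called. Over the 14 settings that kept Folr1, its log2 difference was 3.10 to 4.55. Over 16 settings that of Car12 was 1.44 to 2.84, of Aqp1 0.94 to 1.67, of Clic6 0.81 to 1.56 and of Calml4 0.72 to 2.45. No named gene of the split reversed in a setting that kept it.

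KO minus Het gave 10 calls with DESeq2, 263 without the filter and 0 to 2 with each library left out. These were Reln without KO female 3, and Lama5 and Per1 without Het male 3. Without the library labelled KO female 2 it called 0 of 16010 genes. A replicate block of the labels' numbers within sex gave 6 calls, namely Mfrp, 4 Y-linked genes and Ttr, which made the split. That fit took the library labelled KO female 2 as female although it carries Y-linked reads. The 4 Y-linked calls are therefore not read as a genotype result. Libraries with the same label number had correlations of -0.12 to 0.09 between their deviations from the group means. Whether samples were paired by litter, batch or another numbering was not tested. The slope in Het libraries gave 785 calls without the filter, 66 without the sex term and 72 to 334 with each library left out. The slope at 4 h gave 0 calls with edgeR on recovered reads (677 at an unadjusted p under 0.05) and 2 to 7 with each library left out. Where a count moved, the cause was not tested; settings without the filter test more genes. At 8482933 to 18051300 counts, genes with a few counts per library, such as Kcne2 in Ttr-poor slices, are known only as limits.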
